A study of Mus musculus with 6 samples.

Results

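The mammalian circadian clock is a transcriptional feedback loop that runs in most cells, tumour cells included. CLOCK, paired with ARNTL (also called BMAL1), binds E-box sequences and drives the Period and Cryptochrome genes, whose proteins return to block it, while the receptors NR1D1 and NR1D2 (REV-ERB alpha and beta) repress Arntl. DBP and TEF bind D-box sequences and carry the rhythm to output genes, and hormones and growth factors, insulin among them, are known as signals that can reset the loop through Period genes. The genes described here are 10 members of this loop, Per1, Per2, Per3, Cry1, Cry2, Clock, Nr1d1, Nr1d2, Dbp and Tef, of 19057 genes with a symbol on the array. They were taken by symbol from the platform's probe annotation, which gave 20 probes of 45281.

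The samples came from Mvt-1, a mouse mammary tumour cell line derived from a mouse carrying Myc and Vegf transgenes. The groups were insulin (10 nM, 90 min, 3 arrays) and vehicle (3 arrays), both after 16 h without serum. The labels do not describe the transgenes further, and nothing in them ties replicates to separate cultures, so each p-value covers only the variation among these 6 samples, part of which may be technical. A single time point was sampled, and the phase of the cells' clocks was not measured.

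Between 17617 and 18232 probes were detected per array (detection p under 0.05), and pairs of arrays correlated between 0.988 and 0.992 over the genes tested. Krt8 and Krt18, keratins of luminal mammary epithelium, were detected on all 6 arrays, and the keratins Krt7 on 2 and Krt19 on 0. Of 14 mammary epithelial markers 6 were detected on 0 arrays, Epcam and the basal keratin Krt5 among them. Krt14, another keratin on the list, was detected on 4. Of 16 genes marking immune, endothelial, stromal and fat cells, 8 were detected on 0 arrays by any probe. On at least 3 arrays 4 were detected (Dcn, Acta2, Pdgfrb and Cd34). The summed signal of these 16 genes ran from 1856.9 to 1890.4 with insulin and from 1866.8 to 2023.5 with vehicle. For the 14 mammary markers the sum ran from 3189.3 to 3499.8 with insulin and from 3165.4 to 3952.5 with vehicle. Background was not subtracted, so both sums include it for every gene, detected or not. Of the 4 detected genes of other cell types 0 passed the test (limma, smallest adjusted p = 0.587), with 0 at an unadjusted p under 0.05. Over all 9478 genes tested, 12 rose and 32 fell with insulin, or 0.464% (limma, Benjamini-Hochberg adjusted p under 0.05).

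The promoters of these genes are shown for the letters that clock factors are known to bind. RefSeq promoters of the GRCm38.p6 build were at hand for 9 of the 10 genes, in 13 windows, with none for Per2, and the 250 bases before each annotated start of transcription were searched on both strands. The E-box CACGTG, the letters CLOCK and ARNTL bind, stood before Per1, Cry1 and both starts of Tef, in 4 of the 13 windows, against 6.02% of all 32851 promoter windows. A noncanonical E-box, CACGTT, stood before Cry1, Cry2 and Nr1d1, in 3 of the 13 windows, against 3.85% of all windows. A D-box, TTATGTAA, the letters DBP and TEF bind, occurred at 2 places before Per3. It was thus in 1 of the 13 windows, against 0.819% of all windows. Its other form, TTACGTAA, stood before none of the 9 genes. The cyclic AMP response element TGACGTCA was in 0 of the 13 windows and in 1.55% of all. The core that FOXO factors bind, TGTTTAC, stood before Cry1, in 1 of the 13 windows, against 3.17% of all windows. These matches are descriptions of the letters in the windows and say nothing of binding in these cells. The stretches that hold them are shown 5′ to 3′ along each gene's strand, with the motifs in capitals (a motif on the opposite strand reads as its reverse complement).
Per1 (chr11:69098768-69098803, plus strand): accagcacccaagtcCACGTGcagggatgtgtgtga
Tef, upstream start (chr15:81802531-81802566, plus strand): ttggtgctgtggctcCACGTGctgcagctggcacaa
Tef, downstream start (chr15:81811261-81811296, plus strand): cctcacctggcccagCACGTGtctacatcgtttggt
Cry1 (chr10:85185094-85185164, minus strand; FOXO core, noncanonical E-box, E-box): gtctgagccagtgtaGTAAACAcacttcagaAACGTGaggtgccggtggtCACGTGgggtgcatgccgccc
Cry2 (chr2:92434215-92434250, minus strand): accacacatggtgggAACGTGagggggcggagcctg
Nr1d1 (chr11:98775385-98775420, minus strand): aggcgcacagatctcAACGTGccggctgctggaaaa
Per3 (chr4:151044801-151044885, minus strand): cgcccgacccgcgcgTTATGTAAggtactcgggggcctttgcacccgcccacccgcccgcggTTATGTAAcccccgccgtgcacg

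Of the 20 clock probes, 11 were detected on all 6 arrays, 1 on 3, 3 on 1 and 5 on 0. A probe was tested when detected on at least 3 arrays, which left 12 probes of 8 genes. Cry1, a repressor of CLOCK and ARNTL, had a single probe that was detected on 0 arrays, with signals of 72.3, 70.3 and 72.8 with insulin and 73.8, 72.8 and 69.0 with vehicle, against array medians of 76.0 to 77.1. Nr1d1, the heme receptor REV-ERB alpha, had a single probe with signals of 72.2, 73.6 and 75.5 with insulin and 81.9, 72.6 and 76.8 with vehicle. It was detected on 0 insulin arrays and on 1 vehicle array, replicate 1. Neither gene was tested, and both were too close to background for a fold. In all, 0 of the 8 tested clock genes passed the threshold of 0.05 (limma, Benjamini-Hochberg over 9478 genes), against 0.464% of all genes tested. At an unadjusted p under 0.05 there were 2, Per2 and Clock, where 11.0% of all genes reached that level. By probe, 0 of 12 passed, against 0.0572% of all 17482 probes, and 3 of 12 had an unadjusted p under 0.05, against 9.88%. In 3 of the 8 the change was positive and in 5 negative, where 46% of all genes tested were positive. The median log2 change was -0.0538 against -0.0153 over all genes tested. RNA was measured in bulk, so fewer cells with a transcript and less of it per cell cannot be told apart.

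**Figure D1:**
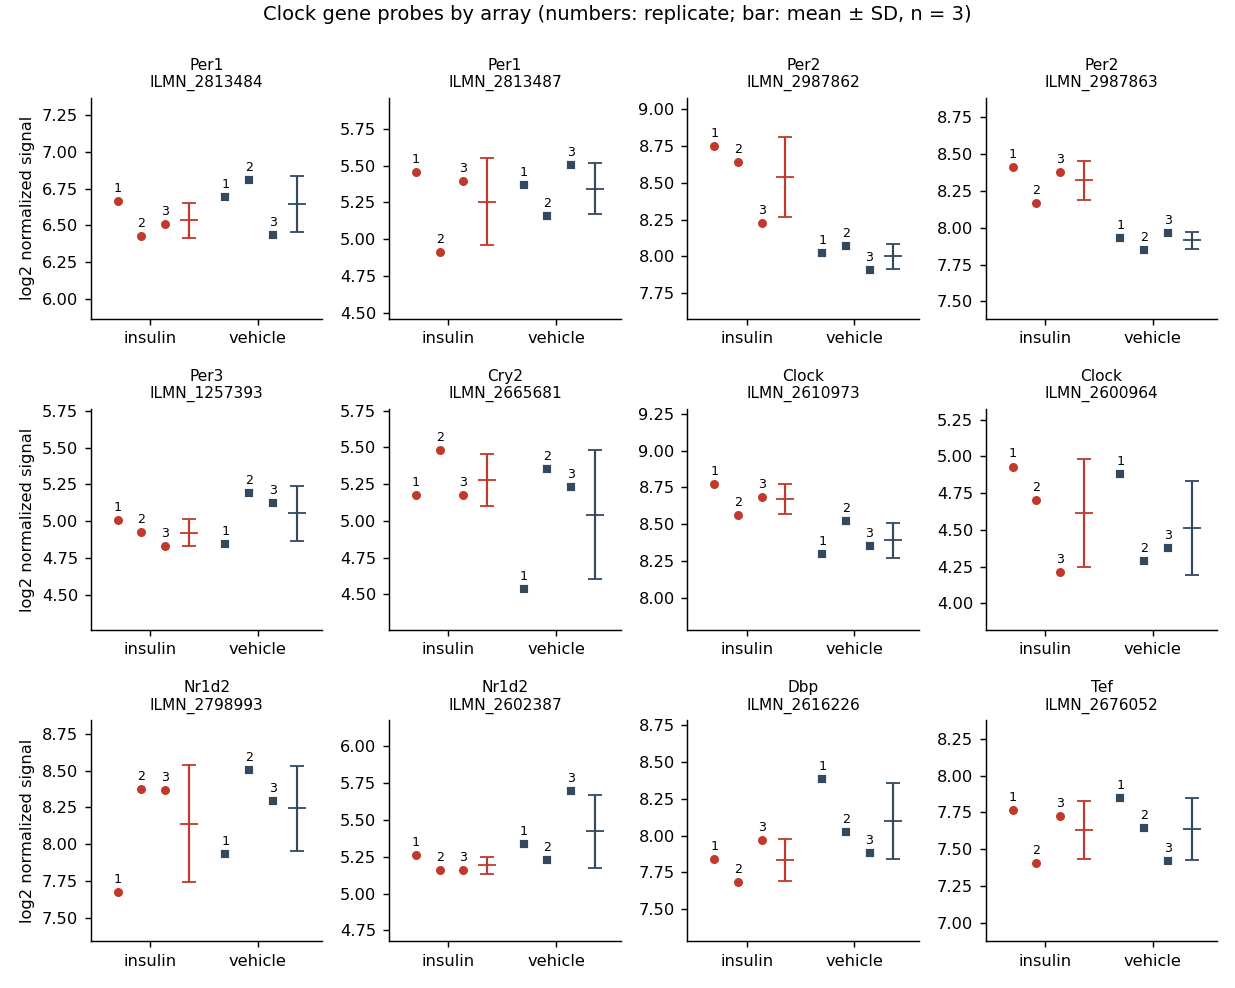
Normalized log2 signal of the 12 tested clock probes on the 3 insulin arrays (circles, left) and the 3 vehicle arrays (squares, right), with the group mean ± SD beside the points. Every panel spans the same height of 1.5 log2 units; the insulin arrays lie above the vehicle arrays on both Per2 probes and on Clock probe ILMN_2610973, and the groups overlap on the other 9.

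Per2, a core repressor of the loop whose transcription also responds directly to outside signals, had the smallest p of the clock genes. Its brightest probe, ILMN_2987862, gave signals of 474.6, 448.4 and 365.6 with insulin, against 316.6, 324.2 and 302.3 with vehicle. The lowest insulin array lay above the highest vehicle array. After normalization the level was 8.54 ± 0.27 with insulin and 8.0 ± 0.08 with vehicle (log2, SD, n = 3 each), a log2 difference of 0.54 ± 0.14 (standard error) or 1.45-fold, with a 95% interval from 1.18-fold to 1.80-fold. The limma adjusted p was 0.137 over all genes tested, so Per2 did not pass, and it ranked 116th by p of the 9478 genes. A further probe, ILMN_2987863, gave 388.5, 344.1 and 399.5 with insulin, against 300.5, 288.2 and 312.5 with vehicle. On it too the groups did not overlap, and the log2 difference was 0.41 ± 0.13 (limma adjusted p = 0.321 over 17482 probes). Insulin replicate 3 was the lowest insulin array on the first of these probes. On the other its signal was the highest, but after normalization insulin replicate 1 was higher (8.41 against 8.38 for replicate 3, log2). Another Per2 probe, ILMN_1258523, was detected on 0 arrays.

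Per2 passed under 2 of 15 alternatives, at a limma adjusted p of 0.0316 with a trended, robust variance model and 0.0283 without insulin replicate 3, where its log2 difference was 0.70 ± 0.14. Its adjusted p ranged from 0.0283 to 0.417 over all 15, and the difference was positive in each of them, between 0.44 and 0.70. The further probe passed in 0 of 14, with differences between 0.34 and 0.48.

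**Figure D2:**
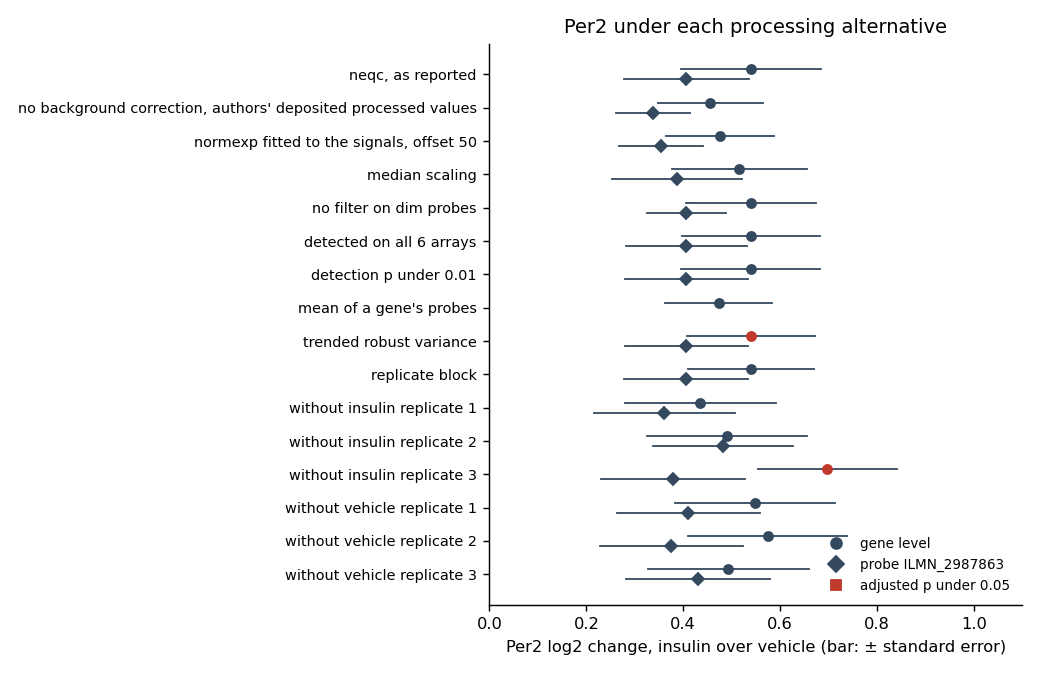
Log2 difference of Per2 between insulin and vehicle (x axis, ± standard error) under each way of processing the arrays, for the gene-level value (circles) and for probe ILMN_2987863 (diamonds). Red marks an adjusted p under 0.05, reached by the gene-level value with the trended robust variance (0.54) and without insulin replicate 3 (0.70); all points lie above 0.

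On its paralogs Per1 and Per3 the groups overlapped. Per1, the Period gene best known for acute induction through cyclic AMP and serum, gave 156.2, 145.4 and 152.0 with insulin, against 158.3, 168.9 and 146.0 with vehicle on its brightest probe, ILMN_2813484. The log2 difference was -0.11 ± 0.14 (limma adjusted p = 0.819), with a 95% interval from 0.759-fold to 1.13-fold. A further Per1 probe, ILMN_2813487, stood at -0.090 ± 0.16. Per3, the Period gene that is least needed for rhythm in mice, gave 89.2, 89.7 and 87.1 with insulin, against 85.3, 94.2 and 93.1 with vehicle. Its log2 difference was -0.13 ± 0.13 (limma adjusted p = 0.781), its interval ran from 0.752-fold to 1.11-fold, and it was dim, with a mean log2 level of 4.92 with insulin and 5.05 with vehicle against a minimum of 4.34 over all genes tested. The change of Per2 was larger than that of Per1 by 0.65 and than that of Per3 by 0.67 on the log2 scale. Within single arrays Per2 minus Per1 was 2.08, 2.21 and 1.72 with insulin and 1.33, 1.26 and 1.47 with vehicle, and here only the change between groups can be read, not the level of one probe against another. In an exact permutation test over the arrays (two-sided) both differences had p = 0.1, the smallest that 3 arrays against 3 allow, and 0.15 after adjustment over the 3 pairs of Period genes. Per1 and Per3 differed in their change by 0.018 (exact permutation p = 0.9, two-sided, adjusted 0.9).

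Clock, the histone acetyltransferase subunit of the activating pair, gave 480.9, 429.2 and 476.5 with insulin, against 372.5, 424.9 and 390.7 with vehicle on probe ILMN_2610973. The groups did not overlap, but insulin replicate 2 (429.2) and vehicle replicate 2 (424.9) lay close together. The level was 8.67 ± 0.10 with insulin and 8.39 ± 0.12 with vehicle (log2, SD, n = 3 each), a log2 difference of 0.28 ± 0.13 (limma adjusted p = 0.429) with an interval from 1.01-fold to 1.47-fold. A further Clock probe, ILMN_2600964, was detected on 2 insulin arrays and 1 vehicle array, and its log2 difference was 0.10 ± 0.19. Per2 and Clock were thus 2 of 8 tested clock genes whose insulin arrays all lay above the vehicle arrays, where 6.59% of all genes did, and in 0 of the 8 did they all lie below, where 9.34% of all genes did. By probe the count was 3 of 12 above, where 6.71% of all probes tested did, and 0 of 12 below, where 8.33% did, but 2 of these 3 probes belong to Per2.

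Cry2, the Cryptochrome that was detected, gave 93.0, 104.5 and 95.0 with insulin, against 80.4, 98.6 and 95.8 with vehicle. Its log2 difference of 0.24 ± 0.18 (limma adjusted p = 0.689) rested on vehicle replicate 1, without which it was -0.016 ± 0.15. Cry2 was dim, and its difference was 0.082 without background correction (the authors' deposited processed values). Nr1d2, the REV-ERB paralog, gave 256.1, 386.6 and 396.3 with insulin, against 300.1, 421.2 and 378.3 with vehicle on its brightest probe. Replicate 1 was the lowest array in both groups, and the log2 difference was -0.10 ± 0.18 (limma adjusted p = 0.891). Its sign turned without insulin replicate 1 (0.13) and without vehicle replicate 2 (0.030). A further Nr1d2 probe, ILMN_2602387, read 95.1, 95.3 and 94.5 with insulin and 96.7, 95.2 and 110.3 with vehicle, at -0.23 ± 0.14, and its replicate 1 arrays were not the lowest in either group.

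Of the D-box factors, Dbp, a direct CLOCK target with one of the widest daily swings in many tissues, gave 280.5, 263.0 and 317.5 with insulin, against 395.3, 317.4 and 298.1 with vehicle. The groups overlapped through insulin replicate 3 and vehicle replicate 3, and the log2 difference was -0.26 ± 0.15 (limma adjusted p = 0.539) with an interval from 0.673-fold to 1.03-fold. Over the 15 alternatives it ran from -0.37 to -0.12, and -0.12 was the value without vehicle replicate 1. Tef, its relative, gave 267.6, 226.6 and 277.0 with insulin, against 285.8, 256.6 and 233.1 with vehicle, so that the groups overlapped. The log2 difference was -0.0048 ± 0.14 (limma adjusted p = 0.997), with an interval from 0.806-fold to 1.23-fold. A second Tef probe was detected on 1 array. The tested genes with CACGTG before their start, Per1 and Tef, thus had differences of -0.11 and -0.0048. Per3 with its D-boxes stood at -0.13 and Cry2 with its noncanonical E-box at 0.24. None passed the threshold, but neither did any other of the 8 tested clock genes, and Per2 had no promoter to search.

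**Figure D3:**
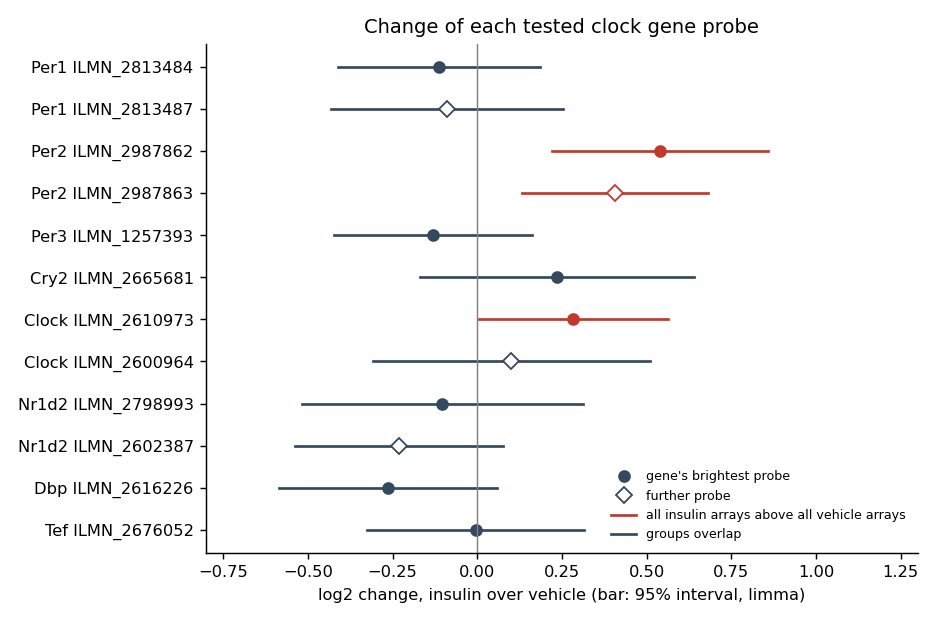
Log2 change (x axis, insulin over vehicle) of the 12 tested clock probes, with 95% intervals from the limma fit over all 17482 detected probes. Filled circles are the probe used for each gene, open diamonds further probes; the intervals of both Per2 probes and of Clock probe ILMN_2610973 lie above 0, and the other 9 include it.

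The wider clock machinery was described by 4 lists, of which 57 genes had a symbol on the array and 45 were tested. Of these 0 rose and 0 fell (limma, smallest adjusted p = 0.291), and 3 had an unadjusted p under 0.05, where 11.0% of all genes did. In 29 the change was positive and in 16 negative, where 46% of all genes tested were positive. The median log2 change was 0.054 against -0.0153 over all genes. In 2 of the 45 the insulin arrays lay above all vehicle arrays, where 6.59% of all genes did, and in 2 below, where 9.34% did.

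Among 3 tested activators and E-box or D-box factors, of 9 on the array, Arntl, the partner of CLOCK, gave 407.9, 490.5 and 535.4 with insulin, against 427.6, 462.7 and 484.6 with vehicle, a log2 difference of 0.085 ± 0.13 (limma adjusted p = 0.870). Ciart, a repressor of CLOCK and ARNTL also called Chrono, stood at 0.17 ± 0.16, and at 0.091 with the mean of its probes. Among 18 kinases, phosphatases and ubiquitin ligases of clock proteins, 13 had a positive change (median 0.074), where 46% of all genes did. Ppp1cb, a catalytic subunit of protein phosphatase 1, gave 566.8, 619.1 and 617.9 with insulin, against 385.1, 512.8 and 546.2 with vehicle, at 0.40 ± 0.15 (limma adjusted p = 0.334). Its difference was 0.23 without vehicle replicate 1 and 0.20 with the mean of its probes. Csnk1e, the casein kinase that marks Period proteins for decay, stood at 0.26 ± 0.13 (limma adjusted p = 0.488), with groups that overlapped.

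Among 15 cofactors the median was 0.023. Timeless, a replication fork protein that binds Cryptochromes, stood at -0.22 ± 0.14, and at -0.098 with the mean of its probes. Sirt1, a deacetylase reported to act on clock proteins, stood at -0.18 ± 0.13. The insulin arrays of Sirt1 lay below the vehicle arrays only after normalization (highest insulin array 7.703, lowest vehicle array 7.709 on the log2 scale), since the signal of insulin replicate 3, 273.6, was above that of vehicle replicate 1, 264.5. Crebbp, an acetyltransferase that CLOCK and ARNTL recruit, stood at 0.36 ± 0.26 and passed only without insulin replicate 3 (limma adjusted p = 0.0135, log2 difference 0.82). It was named after its values were seen. Among 9 output genes the median was 0.13, with 6 positive, where 46% of all genes were. Noct (nocturnin), a phosphatase with a daily rhythm that is also induced by serum, gave 197.2, 203.3 and 248.7 with insulin, against 183.0, 185.6 and 161.7 with vehicle, a log2 difference of 0.40 ± 0.14 (limma adjusted p = 0.312). Lgals4, a galectin, gave 82.2, 82.0 and 85.3 with insulin, against 87.2, 96.3 and 88.3 with vehicle, at -0.39 ± 0.13 (limma adjusted p = 0.291), close to background in both groups. The Lgals4 difference was -0.19 without vehicle replicate 2 and -0.13 without background correction (the authors' deposited processed values). On Noct and Lgals4 the groups did not overlap, in opposite directions.

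**Figure D4:**
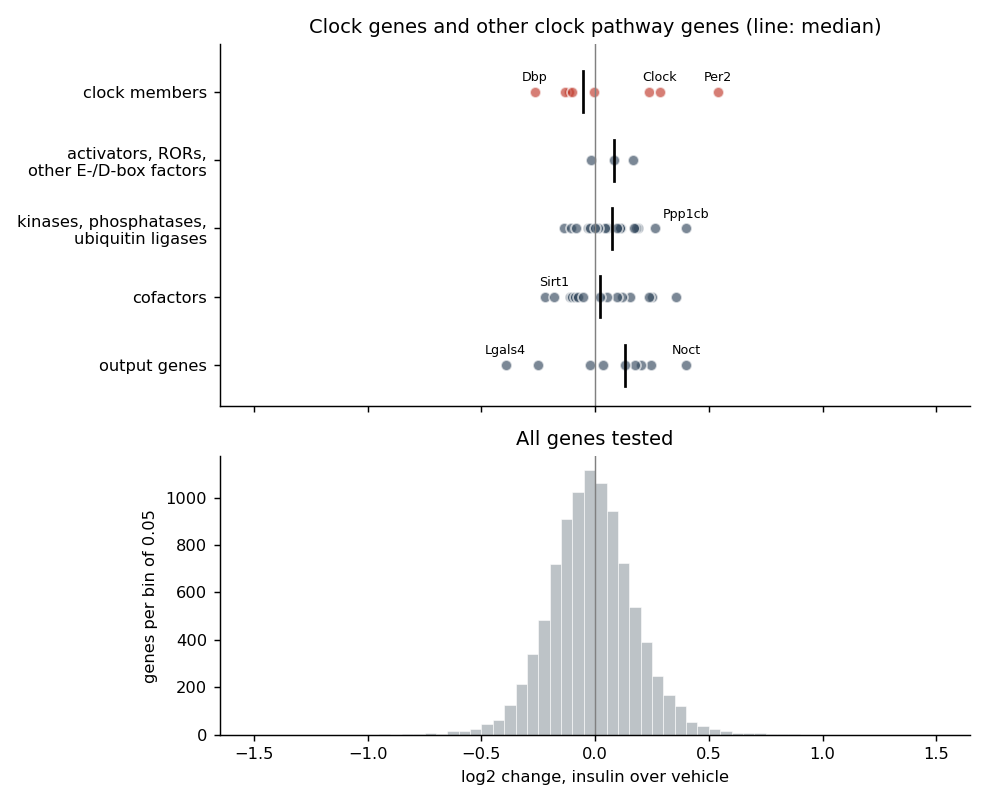
Log2 change (x axis, insulin over vehicle) of the 8 tested clock genes and of the 45 tested genes of the 4 clock pathway lists (upper panel, 1 point per gene, black line at the median), above the distribution over all 9478 genes tested (lower panel, genes per bin). The named points are Dbp, Clock and Per2 and the pathway genes whose groups did not overlap after normalization; the lists' medians lie between -0.054 for the clock genes and 0.13 for the output genes.

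The genes whose levels were most like those of Per2 over the 6 arrays were Rps19bp1, a regulator of SIRT1 (Pearson's r = 0.994), Agfg2 (r = 0.991) and Sbf2, a myotubularin-related protein (r = 0.989). Their log2 differences were 0.33 ± 0.13, 0.19 ± 0.12 and 0.59 ± 0.15, and none passed the threshold (smallest limma adjusted p = 0.112). Sbf2 passed with the replicate number as a block (limma adjusted p = 0.0365) and without insulin replicate 3 (0.0183), and its difference was 0.24 with the authors' deposited processed values. They were picked as the highest of 9477 correlations over 6 arrays that share 2 treatments, so the values describe likeness alone.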

How the data were processed

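RNA from 6 Mvt-1 samples was labelled with biotin and hybridized to single-colour Illumina beadchips. Per the file headers, the authors deposited a linear signal intensity and a detection p-value for each of 45281 probes per array, not normalized, which came from GenomeStudio per the submitters' processing notes. Its version and options are not given in the sources used here. Their deposited processed intensity values equalled a quantile normalization of these signals to within 3.33e-06, without background correction, centring or log scale. Columns were matched to samples by the accession in the headers. No slide or scan date was used. The number of arrays limits the precision.

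Signals were corrected with limma 3.58.1 (neqc, offset 16, background inferred from the detection p-values), quantile normalized and put on the log2 scale in R 4.3.3. This stretches differences among dim probes. Probes with a detection p under 0.05 on at least 3 of 6 arrays were kept (17482), and for each gene with a single symbol the probe with the highest mean was used (9478 genes). Insulin and vehicle were compared by limma (lmFit, eBayes, two-sided, Benjamini-Hochberg over all genes or, for further probes, over all kept probes), without the replicate number. Intervals are 95% and not adjusted for the number of genes. These steps were also run on simulated data with known changes and 1 common spread for all probes. The share of changes recovered is not reported here, so that run gives no measure of what 3 arrays per group can detect. A probe undetected on every array of a group has only a bound there, and for clock probes no such bound gave a fold above 1.

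The text names all 10 members and, from each of 4 pathway lists, genes past the threshold or, with none, the 2 with the smallest p. It also names the 3 genes most correlated with the member of smallest p. Members, lists and motifs were chosen with earlier results of these data known. RefSeq promoters came from a table for GRCm38.p6, searched with Python 3.11.15.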

Additional observations from a re-analysis of the deposited data

How the results depend on the processing

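With 3 arrays per group and dim signals for Per3, Cry2, Lgals4 and the undetected probes, small changes could not be resolved. Over 15 alternatives (14 for probes) 0 clock genes passed, except 1, Per2, with a trended robust variance and 1 without insulin replicate 3 (range with single arrays left out, 0 to 1). Clock probes stayed at 0 in each, and Clock probe ILMN_2600964 passed the detection filter in only 10 of the 14. Other pathway genes stayed at 0 except 1, Crebbp, without insulin replicate 3 (range 0 to 1). The count over all genes, 44, was 22 with the authors' deposited processed values, 29 with normexp fitted to the signals, 0 without a filter on dim probes (19057 genes tested), 83 with the trended robust variance, 75 with the replicate block, and between 3 (without vehicle replicate 3) and 69 (without insulin replicate 3) with single arrays left out. Without a filter limma gave 1645 genes at an unadjusted p under 0.05. Leaving out arrays or adding dim probes changes the samples or genes tested; the other causes were not tested. Per2 stood at an adjusted p of 0.0584 with the replicate block, which changed no clock call. Deviations of same-numbered arrays from their group means correlated at 0.0901, 0.152 and 0.131, each the highest for its arrays. These values are low and no chance level was computed for them. The labels do not say whether numbers mark pairs, and these values cannot decide it. Signs turned only when 1 array was left out, ranging from -0.016 to 0.39 for Cry2, from -0.26 to 0.13 for Nr1d2, from -0.11 to 0.11 for Tef, from -0.19 to 0.080 for Per1 probe ILMN_2813487 and from -0.013 to 0.30 for Clock probe ILMN_2600964. Per1, Per2, Per3, Clock, Dbp, the 8 pathway genes named by rule, Crebbp and the 3 genes most like Per2 kept their direction in all 15 alternatives; the cell type markers were not run under them.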
